A study of Mus musculus with 6 samples.

Results

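The 10 genes described here are ones that the transcription factor p53 is known to switch on in stress and death responses, read in 2 mouse cell lines. They were chosen by name, as the rows of the count table for Fas, Eda2r, Perp, Gdf15, Bax, Bbc3, Pmaip1, Ccng1, Phlda3 and Zmat3, and all 10 were found among the 23284 genes of the table. RNA-seq of ribosome-depleted total RNA covered MV+, a lens epithelial line grown from a wild-type C57BL6 mouse, and RAG, a renal adenocarcinoma line of the BALB/c strain. Each line had 3 libraries, which the methods call experimental replicates, from untreated cells grown in the same medium. The study used the lines as models that express (MV+) or do not express (RAG) the eye gene Pax6, so line, tissue, tumour origin and mouse strain differ together here and cannot be told apart. Each line is a single line, neither was authenticated according to the methods, and a p-value below measures the spread between its libraries only. The state of the p53 gene in either line is not given in the sources used here.

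In unstressed cells p53 is kept low by the ubiquitin ligase Mdm2, itself a p53 target. After DNA damage or other stress p53 is stabilized, binds DNA as a tetramer and raises genes that halt the cell cycle, repair DNA or start apoptosis. Death can be called from outside, through receptors of the TNF receptor superfamily such as Fas and Eda2r, or from inside, where BH3-only proteins such as Bbc3 (Puma) and Pmaip1 (Noxa) set free the pore-forming protein Bax at mitochondria. Many of these genes are also driven by other factors, so their mRNA is no direct measure of p53 activity.

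Depth ranged from 17413045 to 22428230 counts in the MV+ libraries and from 28252165 to 43168532 in RAG. A floor of 3 counts stood for 0.122 to 0.167 CPM in single MV+ libraries and 0.0697 to 0.115 CPM in RAG, where CPM is the count scaled by library size after TMM normalization. Of 11 lens markers 3 averaged 1 CPM or more in MV+ (Pax6, Six3 and Sox2), while Foxe3 and the crystallin genes Crybb2 and Crygs had no count there. Of 8 markers of kidney epithelium 5 reached that level in RAG, but the epithelial genes Epcam and Cdh1 had 0 and 8 counts over its 3 libraries. Markers of leukocytes and endothelium, 8 in all, summed to 1.95 to 2.52 CPM in MV+ and 92.3 to 107 CPM in RAG, almost all of it Cd68, with Cd3e at 0 in both lines. The 6 pancreatic islet markers read summed to 9.79, 6.47 and 1.38 CPM in MV+ replicates 1, 2 and 3, against at most 0.0767 CPM in any RAG library. The part of either sum in the results was not tested, and values without MV+ replicates 1 and 2 are given for the genes named here where a call changed or a value moved by over 1.5 times.

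Promoter sequence is shown first for the members in which a p53 motif was found, since such motifs are the DNA that p53 is known to bind. The genes were chosen as known p53 targets, so a motif in their promoters is not independent of that choice. The shares of all genes given beside them are a description only. RefSeq promoters (GRCm38.p6, 250 bases before to 50 after the start) matched 7 of the 10 members; Perp, Pmaip1 and Zmat3 were not among them. The p53 half-site, a motif of 10 bases that reads the same on both strands, was present without mismatch in Bax and Ccng1, 2 of 7 members, beside 9.55% of all 27025 genes with a promoter. A full site was searched as 2 half-sites at most 13 bases apart, with at most 3 mismatches and the central 4 bases of each half-site intact. It was present in Bax and Bbc3, 2 of 7 members, beside 7.63% of all genes. A gene was counted if any of its promoters held a match. Bbc3 has 3 promoters in this set, and its site lies in 1 of them, from whose start the position is given. Sequence outside the window was not searched, so members without a match here may hold sites elsewhere. The half-site without mismatch can form part of a full site, as it does in Bax. Capitals mark the match in the following stretches, which hold 20 bases on either side of it and read 5′ to 3′ on the gene's strand. The matches lie at positions -185 to -176 from the start for the Ccng1 half-site, -216 to -192 for the Bax full site and -97 to -78 for the Bbc3 full site. The whole stretches printed, flanks included, span chr11:40755442-40755491 (minus strand) for Ccng1, chr7:45467070-45467134 (minus strand) for Bax and chr7:16309466-16309525 (plus strand) for Bbc3.
Ccng1: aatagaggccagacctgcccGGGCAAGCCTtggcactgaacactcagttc
Bax: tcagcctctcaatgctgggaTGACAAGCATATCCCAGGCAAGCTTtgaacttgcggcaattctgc
Bbc3: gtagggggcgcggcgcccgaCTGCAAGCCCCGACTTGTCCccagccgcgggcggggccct
The Bax match, 1 of 3 in that promoter, had 2 mismatches over the pair of half-sites and a spacer of 5 bases, and its second half-site is the one without mismatch. Another Bax match overlaps it at -201 to -181, and the last spans the start. The Bbc3 match had 3 mismatches and no spacer. These are matches of letters and no measure of binding, and the 3 genes did not share a direction: Ccng1 and Bbc3 were higher in MV+ and Bax was lower.

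The 10 genes did not move as a block between the lines. Both receptors of the TNF receptor superfamily and the 3 genes of feedback and growth control were higher in MV+. The secreted factor Gdf15 and the membrane protein Perp were far lower in MV+ than in RAG, and the BCL2 family members split. As the libraries are bulk RNA, a difference in level cannot be told apart from a difference in the share of cells that express a gene. All 10 genes had enough counts to be tested, 6 were called higher in MV+ and 4 lower (quasi-likelihood test of edgeR, with p adjusted after Benjamini and Hochberg over all genes tested and a threshold of 0.05). Between these lines that is not unusual in itself, since 79.3% of the 12965 genes tested were called, 40.4% higher and 38.9% lower. The libraries of the lines did not overlap in CPM for 9 of 10 members, Bbc3 being the exception, beside 80.6% of all genes tested. All MV+ libraries lay above all RAG libraries for 5 members and below them for 4, beside 40.9% and 39.7% of all genes. Past an absolute log2 fold change of 1, 3 members were higher and 4 lower, beside 18.7% and 16.4% of all genes. The median absolute log2 fold change was 2.14 over the members and 0.66 over all genes tested. The members were chosen with earlier results of these data known, so these shares and medians are no test of p53 targets as a class. The share of calls that favoured MV+ was 50.9%, and 61.0% by limma on unfiltered FPKM, and the members kept their directions in all 18 alternative analyses.

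**Figure D1:**
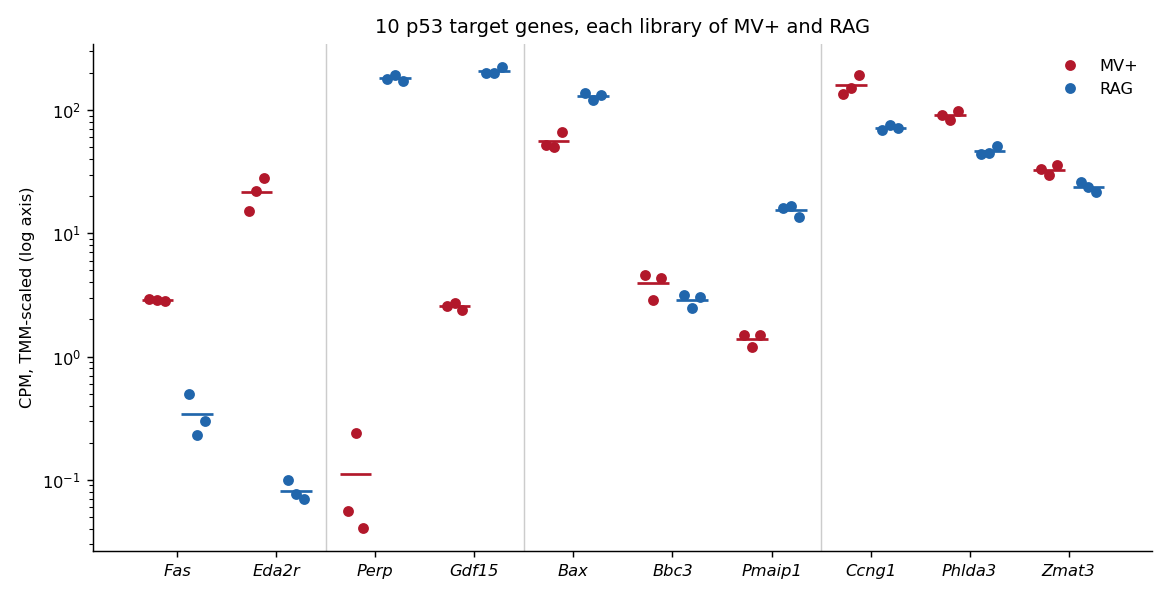
Normalized level of each member (CPM, log axis) in the 3 MV+ libraries, left of each pair, and the 3 RAG libraries, with bars at the means. Points are libraries in the order of their replicate numbers. Grey lines part receptors of the TNF receptor superfamily, membrane and secreted proteins, BCL2 family members and genes of feedback and growth control. The cell lines are apart in 9 genes and overlap in Bbc3.

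The receptors had the largest differences among the 6 members higher in MV+. Eda2r, the receptor of the A2 form of ectodysplasin and a member of the TNF receptor superfamily, lies on chromosome X (94529180 to 94572548, mm9, minus strand). It had 275, 462 and 688 counts in MV+ replicates 1, 2 and 3, or 15.3, 22.0 and 27.999 CPM, against 3, 2 and 3 counts, or 0.0989, 0.0767 and 0.0697 CPM, in RAG. Every RAG library was thus at or below the floor of 3 counts. The log2 fold change came to 8.01 ± 0.37 (SE; adjusted p = 1.75e-08, edgeR), and the ratio of summed counts per library size was 279 with a 95% counting interval from 141 to 647.

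Fas, the receptor of Fas ligand, lies on chromosome 19 (34365149 to 34402260, plus strand) and was a gene of low level in both lines. MV+ libraries held 53, 61 and 70 counts, or 2.95, 2.90 and 2.85 CPM, against 15, 6 and 13 counts, or 0.494, 0.230 and 0.302 CPM, in RAG. The MV+ libraries agreed closely and the RAG libraries, near their floors, varied more, but the lines stayed apart. The log2 fold change was 3.06 ± 0.25 (adjusted p = 1.44e-08, edgeR), a fitted 8.37-fold difference.

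The ligands and the machinery of these receptors were read beside them. Eda, which encodes ectodysplasin, the ligand of Eda2r, had 45, 63 and 99 counts in MV+, against 1, 1 and 3 in RAG, with a log2 fold change of 5.88 ± 0.37 (adjusted p = 7.67e-10, edgeR) and a ratio of 64.8 (counting interval 27.3 to 202). The counts do not tell its A1 form from its A2 form, and of the pair only the second binds Eda2r. Fasl, the ligand of Fas, had 5 counts in MV+ and 1 in RAG, too few to be tested. Of 10 tested genes among ligands, adaptors and caspases 4 were higher in MV+ and 3 lower, beside 40.4% and 38.9% of all genes tested. The adaptor Fadd was lower at -0.29 ± 0.09 (adjusted p = 0.00859, edgeR), a call kept in 13 of 18 alternatives. The call was lost when scaling by total counts, in limma fits of FPKM and without MV+ replicates 1 and 2 (-0.15). Cflar, which restrains caspase-8 at the receptors, was lower at 44.6 ± 2.52 CPM in MV+ and 85.1 ± 3.47 CPM in RAG (SD, n = 3 each; log2 fold change -0.93), and Traf3, a signalling adaptor, was lower at -0.32, a call lost when scaling by total counts (adjusted p = 0.107, edgeR) and in limma fits of FPKM (0.112 to 0.115).

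Perp and Gdf15 were the 2 members with the largest differences among those lower in MV+. Perp, a tetraspan membrane protein that p53 induces in apoptosis and that also acts at desmosomes of epithelia, lies on chromosome 10 (18564877 to 18576878, plus strand). It had 1, 5 and 1 counts in MV+ replicates 1, 2 and 3, or 0.0556, 0.238 and 0.0407 CPM, against 5412, 4995 and 7429 counts, or 178, 192 and 172 CPM, in RAG. A line with 7 counts in all sets the precision here: the ratio of RAG over MV+ was 1628 with a counting interval from 790.1 to 4051. The fitted log2 fold change was -10.62 ± 0.18 (adjusted p = 1.04e-16, edgeR), and it was -11.78 without MV+ replicate 2, which holds 5 of the 7 counts, and -11.98 without MV+ replicates 1 and 2.

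Gdf15, a secreted cytokine of the TGF-beta superfamily that many kinds of stress induce, lies on chromosome 8 (73153293 to 73155534, minus strand). MV+ libraries had 46, 57 and 59 counts, or 2.56, 2.71 and 2.40 CPM, against 6086, 5193 and 9643 counts, or 201, 199 and 224 CPM, in RAG. The SD was 6.08% of the mean in MV+ and 6.66% in RAG, and every MV+ library was well above its floor. The log2 fold change was -6.35 ± 0.10 (adjusted p = 5.59e-17, edgeR), and RAG was 81.4-fold higher. Gfral, its receptor, which is known from the hindbrain, had no count in any library, and the co-receptor Ret had 80 counts in MV+ and 27 in RAG (log2 fold change 2.19 ± 0.30, adjusted p = 7.91e-06, edgeR).

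Within the BCL2 family the effector Bax and the BH3-only gene Pmaip1 were lower in MV+, and the BH3-only gene Bbc3 was slightly higher. Bax lies on chromosome 7 (52717065 to 52722268, minus strand), 35.8 Mb from Bbc3 (16894932 to 16903683, plus strand). Bax stood at 52.6, 50.1 and 66.3 CPM in MV+, against 139, 121 and 132 CPM in RAG. All RAG libraries were above all MV+ libraries, with a log2 fold change of -1.21 ± 0.10 (adjusted p = 5.37e-08, edgeR).

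Pmaip1, on chromosome 18 (66618258 to 66625212, plus strand), had 27, 25 and 37 counts in MV+, or 1.502, 1.19 and 1.51 CPM, against 485, 438 and 582 counts, or 15.99, 16.8 and 13.5 CPM, in RAG. The lines were far apart at a log2 fold change of -3.45 ± 0.15 (adjusted p = 7.45e-12, edgeR), and RAG was 11.0-fold higher.

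Bbc3 was the member with the least certain difference. Its counts were 83, 60 and 107 in MV+, or 4.62, 2.85 and 4.35 CPM, against 95, 64 and 130, or 3.13, 2.46 and 3.02 CPM, in RAG. MV+ replicate 2 lay among the RAG libraries. The log2 fold change was 0.45 ± 0.18 with a 95% interval from 0.05 to 0.84 (adjusted p = 0.0364, edgeR). Leaving out replicate 1 or 3 of MV+, or replicate 2 or 3 of RAG, ended the call (log2 fold changes of 0.34, 0.35, 0.35 and 0.48, adjusted p of 0.0609 to 0.147, edgeR), as did DESeq2 (adjusted p = 0.0547).

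Of the BCL2 family genes these 3 act with, 3 were higher in MV+ and 3 lower, beside 40.4% and 38.9% of all genes tested. Bcl2l1, the survival protein Bcl-xL that holds Bax back, was at 57.4 ± 5.18 CPM in MV+ and 307.8 ± 8.26 CPM in RAG (log2 fold change -2.42), so that Bax and Bcl2l1 were both lower in MV+. Bid, whose cleavage links death receptors to mitochondria, was at 17.6 ± 0.605 CPM in MV+ and 75.4 ± 2.90 CPM in RAG (log2 fold change -2.10). The survival genes Mcl1 and Bcl2 were higher in MV+ by 0.49 ± 0.07 and 0.48 ± 0.11 on the log2 scale (adjusted p = 1.24e-05 and 0.000758, edgeR).

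The 3 genes of feedback and growth control were all higher in MV+, by smaller amounts and at levels that leave counting error small. Ccng1, cyclin G1, which works with a phosphatase to activate Mdm2, lies on chromosome 11 (40562054 to 40568788, minus strand). It had 134, 152 and 191 CPM in MV+, against 69.2, 75.3 and 71.7 CPM in RAG. The MV+ libraries were all higher and more spread, and the log2 fold change was 1.14 ± 0.11 (adjusted p = 2.86e-06, edgeR).

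Phlda3, which competes with Akt for membrane lipids and so restrains Akt, lies on chromosome 1 (137662662 to 137665711, plus strand). It stood at 90.7, 83.4 and 98.3 CPM in MV+, against 43.9, 45.1 and 50.7 CPM in RAG. The groups did not overlap, with a log2 fold change of 0.96 ± 0.08 (adjusted p = 2.41e-08, edgeR).

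Zmat3, a zinc finger protein that binds RNA, lies on chromosome 3 (32233716 to 32264587, minus strand). It stood at 33.0, 29.9 and 36.0 CPM in MV+, against 26.1, 23.6 and 21.7 CPM in RAG, apart but by a small margin, with a log2 fold change of 0.47 ± 0.09 (adjusted p = 0.000247, edgeR). Of its 7782 exon bases 162 are shared with 4930429B21Rik on the other strand, and reads there were left out of both genes. No other member shared exon bases with another gene of the table.

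**Figure D2:**
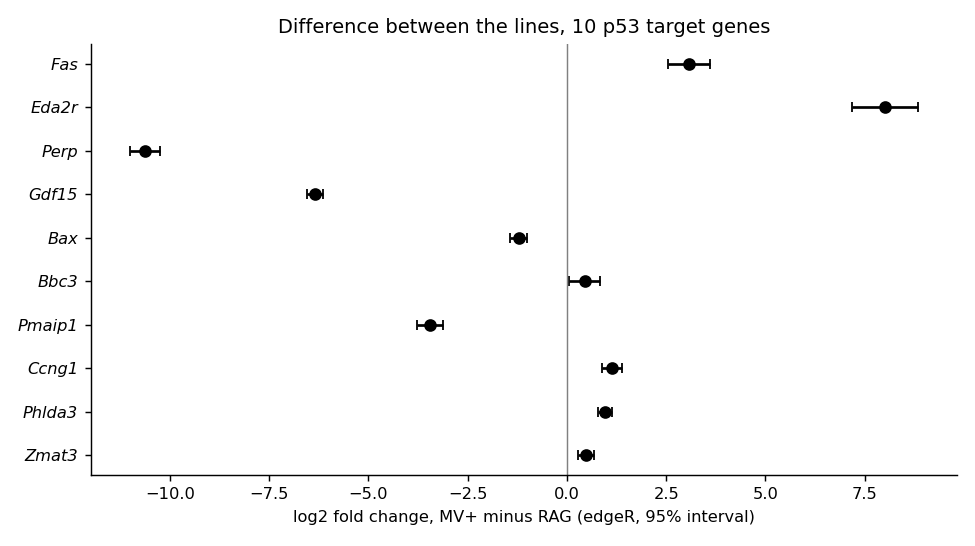
Log2 fold change of each member, MV+ minus RAG, with the 95% interval of the edgeR fit, ordered by role from top to bottom. Intervals lie to the right of 0 for 6 genes and to the left for 4, from Perp at -10.62 to Eda2r at 8.01; for Perp and Eda2r the fitted interval leaves out part of the counting error.

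Per unit of length, the members spanned wide ranges within each line, and the order of the genes differed between them. In MV+ the highest were Bax, Phlda3 and Ccng1, at 69.2 ± 12.4, 66.0 ± 6.62 and 48.7 ± 10.4 FPKM (SD, n = 3), where FPKM is the deposited count scaled by exon length and library total. Bax and Phlda3 overlapped in their ranges over libraries, and Ccng1 lay below both. These 3 made up 34.7%, 33.1% and 24.4% of the summed FPKM of the members. A second tier ran from Zmat3 at 4.52 FPKM and Eda2r at 4.01 FPKM, which overlapped, through Gdf15 at 2.51, Bbc3 at 2.12 and Fas at 1.71, of which the last pair overlapped, to Pmaip1 at 0.561 and Perp at 0.0624 FPKM.

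In RAG Gdf15 led at 181 ± 22.1 FPKM, above 98.0% of the genes tested, followed by Bax at 141 ± 11.3 and Perp at 89.3 ± 4.51 FPKM. They made up 38.4%, 30.01% and 18.99% of the members' sum. Phlda3 and Ccng1 followed at 29.9 and 19.4 FPKM, then Pmaip1 at 5.44, Zmat3 at 2.86 and Bbc3 at 1.36, with Fas at 0.177 and Eda2r at 0.0131 FPKM last. No neighbours in this order overlapped over the 3 RAG libraries. Bax was thus among the highest 2 members in both lines, while Perp ranked 10 in MV+ and 3 in RAG, and Eda2r ranked 5 in MV+ and 10 in RAG.

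**Figure D3:**
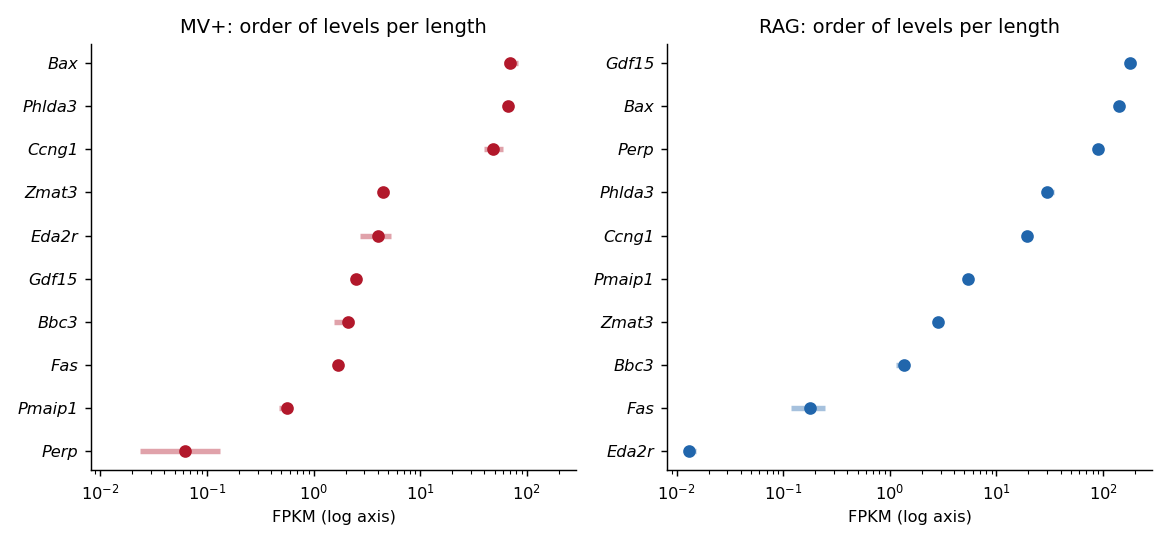
Members in order of their mean FPKM (log axis) within MV+, left, and RAG, right, with shaded bars from the lowest to the highest library. Bax leads in MV+ at 69.2 FPKM and Gdf15 in RAG at 181 FPKM, and the bars overlap between neighbours only in MV+.

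The regulators of p53 and its other targets were set beside the members, from a list of 43 pathway genes. Trp53, the p53 gene, was higher in MV+, at 280, 259 and 297 CPM, against 83.7, 80.8 and 84.2 CPM in RAG (log2 fold change 1.75 ± 0.07, adjusted p = 2.54e-12, edgeR). Cdkn2a, whose Arf product frees p53 from Mdm2, was at 152.9 ± 4.28 CPM in MV+ and 77.4 ± 1.85 CPM in RAG (SD, n = 3 each; log2 fold change 0.98). The counts do not tell Arf from the other product of that gene. Mdm2 was not called, at 104 ± 5.65 CPM in MV+ and 109.8 ± 7.60 CPM in RAG, a log2 fold change of -0.08 with a 95% interval from -0.23 to 0.08 (adjusted p = 0.335, edgeR). Mdm4, a relative of Mdm2 that blocks p53, was higher by 0.33 ± 0.08, and the checkpoint kinases Chek2 and Atr were lower, at -0.96 ± 0.08 and -0.69 ± 0.10. Of 10 regulators tested 5 were higher, 2 lower and 3 not called, beside 40.4% higher and 38.9% lower of all genes tested. Usp7, a deubiquitinase of p53 and Mdm2, was higher by 0.21 ± 0.07 (adjusted p = 0.0160, edgeR), a call kept in 15 of 18 alternatives. The call was lost without MV+ replicate 1 (0.16), without RAG replicate 2 (0.17) and without MV+ replicates 1 and 2 (0.09). The p53 relatives Trp63 and Trp73 had at most 5 counts in a line and were not tested.

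Cdkn1a, the p21 inhibitor of cyclin-dependent kinases and a textbook target of p53, was not called. It stood at 46.2, 43.2 and 68.8 CPM in MV+, against 46.4, 42.0 and 45.4 CPM in RAG, so that MV+ replicate 3 alone lay outside the RAG range by a wide margin. The log2 fold change was 0.24 with a 95% interval from -0.19 to 0.67 (adjusted p = 0.248, edgeR), -0.00095 without MV+ replicate 3, and 0.63 (adjusted p = 1.26e-05) without MV+ replicates 1 and 2.

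Other targets went in both directions. Over all 40 pathway genes tested, the 10 regulators included, 13 were higher in MV+, 17 lower and 10 not called. The regulators leaned to higher (5 higher, 2 lower), so the 30 other targets alone leaned more to lower than these counts show. The median log2 fold change was -0.07, beside 0.03 for all genes tested. Beside these counts and those by role below, 40.4% of all genes tested were called higher and 38.9% lower. Of 7 cell cycle targets 3 were higher and 2 lower. The antiproliferative gene Btg2 and the polo-like kinase Plk2 were higher by 3.06 ± 0.11 and 2.96 ± 0.07 on the log2 scale. Gadd45a, a gene of growth arrest and DNA damage, was at 7.37 ± 0.289 CPM in MV+ and 38.5 ± 1.14 CPM in RAG (log2 fold change -2.38), and Plk3 was lower at -0.65 ± 0.11. Of 5 targets in DNA repair and nucleotide supply 3 were lower, among them Ddb2, which recognizes ultraviolet damage, at -2.32 ± 0.13 and the ribonucleotide reductase subunit Rrm2b at -0.97 ± 0.09, while the repair nuclease gene Ercc5 was higher by 0.85 ± 0.08.

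The other death targets went both ways. Of 10 tested 3 were higher, 3 lower and 4 not called. Tnfrsf10b, the mouse receptor of the death ligand TRAIL, was higher, at 61.6 ± 0.889 CPM in MV+ and 26.6 ± 1.69 CPM in RAG (log2 fold change 1.21), as was Apaf1, the scaffold of the apoptosome, by 0.58 ± 0.08. Dram1, which acts in autophagy, and Siva1 were lower, at -0.98 ± 0.12 and -0.90 ± 0.08. Pidd1, a death domain protein that the table lists under an older symbol, was at 14.96 ± 2.89 CPM in MV+ and 11.0 ± 2.58 CPM in RAG and was not called (log2 fold change 0.43, adjusted p = 0.0610, edgeR), but was called in 11 of 18 alternatives, among them the fit with the replicate number as a block (0.44, adjusted p = 0.000888, edgeR) and the fit without MV+ replicates 1 and 2 (0.65, adjusted p = 0.0269, edgeR). Trp53inp1, a nuclear protein that acts with p53 in stress, was not called at a log2 fold change of 0.02 (adjusted p = 0.928, edgeR), but was called without MV+ replicates 1 and 2 (0.42, adjusted p = 0.0173, edgeR).

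Of 8 metabolic and redox targets 7 were lower in MV+, beside 38.9% of all genes tested, and 1 of the 7 lay below a log2 fold change of -1. The 7 included Gls2, a mitochondrial glutaminase, at -2.11 ± 0.12 and Tigar, which lowers glycolytic flux, at -0.98 ± 0.08. Gpx1, the lowest in size at -0.23, lost its call with upper quartile scaling, with total counts, by limma on FPKM and without MV+ replicates 1 and 2. The exception was Cpt1c, a carnitine palmitoyltransferase relative best known from neurons, with 537, 606 and 891 counts in MV+, against 5, 6 and 13 in RAG (log2 fold change 7.01 ± 0.18, adjusted p = 1.27e-14, edgeR).

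**Figure D4:**
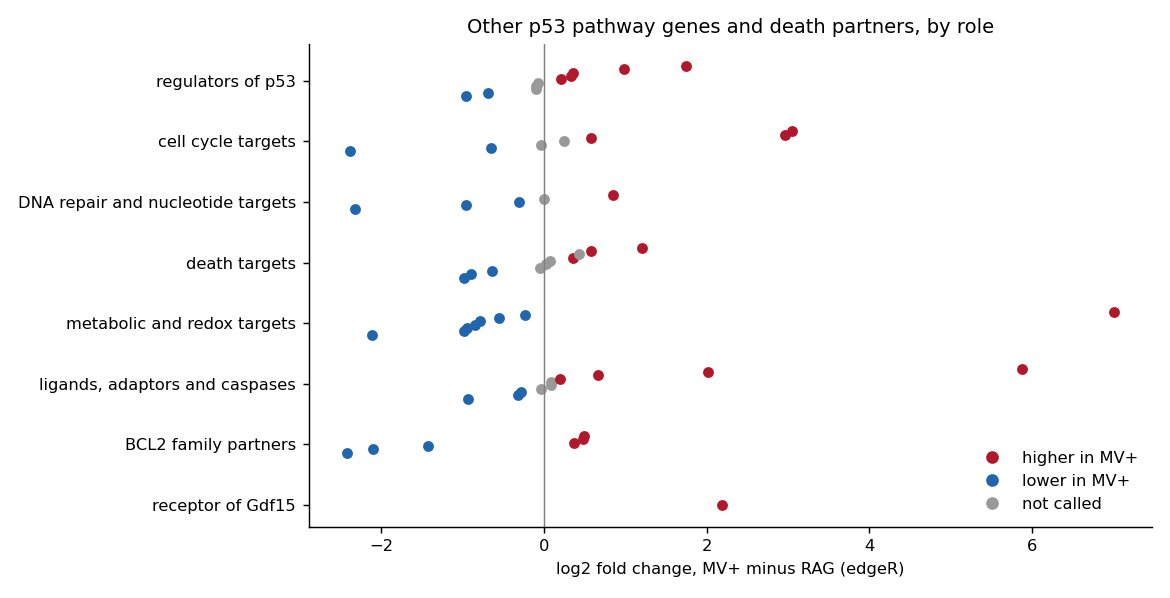
Log2 fold change, MV+ minus RAG, of the 40 tested pathway genes (upper 5 rows) and the 17 tested partners of the members (lower 3 rows), by role; the only tested gene of the last row is Ret. Red points were called higher in MV+, blue points lower and grey points neither, and each row but the last holds both red and blue points, from Bcl2l1 at -2.42 to Cpt1c at 7.01.

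The spread between libraries of a line was read last. The median coefficient of variation over replicates was 14.2% for the members in MV+, beside 7.49% for all genes tested, and 8.52% for the members in RAG, beside 7.27% for all genes. In MV+ replicate 3 had the highest CPM of the line for 6 of 10 members and 16 of 30 other targets tested, beside 33.3% of all genes. Its level over the mean of replicates 1 and 2 was 1.502 for Eda2r, 1.338 for Ccng1 and 1.29 for Bax, and among other targets 1.57 for Trp53inp1, 1.54 for Cdkn1a and 1.26 for Pidd1. Of these only Eda2r among the 10 members, and Cdkn1a and Trp53inp1 among the 30 other targets, passed 1.343. That is the 95th percentile of this ratio over all genes tested. The ratio was over 1 for 7 of 10 members and 20 of 30 other targets. Their medians were 1.14 and 1.04, beside 0.998 for all genes tested. The comparison was chosen after the values were seen. Fas and Gdf15 lay at 0.974 and 0.911, and Perp at 0.277 on 7 counts in all, so not all members shared this difference. In RAG replicate 3 was highest for 2 of 10 members and 15 of 30 other targets, beside 31.1% of all genes, and 0 members and 2 other targets passed the 95th percentile of that line. The counts for the other targets were thus near those in MV+. The sum of islet markers ran the other way in MV+, lowest in replicate 3 (1.38 CPM), and its part in this difference was not tested. Without MV+ replicate 3 Ccng1, Eda2r and Bax kept their calls.

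**Figure D5:**
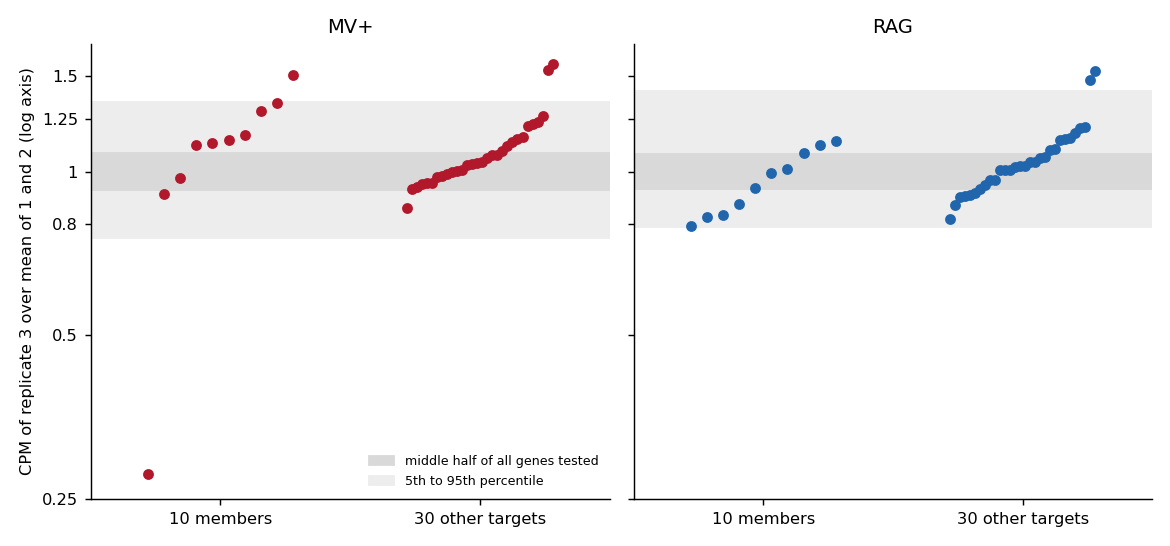
CPM of replicate 3 over the mean of replicates 1 and 2 (log axis) for the 10 members and the 30 other p53 targets tested, in MV+, left, and RAG, right; points are genes sorted by value within each set. Bands hold the 25th to 75th and the 5th to 95th percentiles of all genes tested, and in MV+ Eda2r reaches 1.502 and Cdkn1a and Trp53inp1 1.54 and 1.57, while the lowest point is Perp at 0.277.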

How the data were processed

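Single-end reads were aligned by the authors to mm9 with TopHat2 version 2, handled them with SAMtools 1.6 and counted reads per RefSeq gene with featureCounts 1.5.0-p3 (Subread) at default settings, without strand, as the methods and file headers state. Reads that align to several places or overlap several genes were left out. The deposited counts were raw. Deposited FPKM came from these counts, the summed exon length and the library total; recomputed, they differed by at most 2.73e-15 of their value.

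Counts were tested in R 4.3.3 with edgeR 4.0.16 (robust quasi-likelihood, filterByExpr, TMM, no block) on the whole table; p-values were two-sided and adjusted over 12965 genes. Log2 fold changes give MV+ over RAG. Their SE, taken from the F statistic as size divided by root F, understates counting error where a line has few counts. Counting intervals are exact (95%) and cover counting error only. Alternatives used DESeq2 1.42.0, limma 3.58.1 on log2(FPKM + 1) or log2(FPKM + 0.1), other scalings and filters, Rn45s left out, and each library left out. One alternative, without MV+ replicates 1 and 2, was added after seeing the data; it leaves a lone MV+ library that is assumed to vary like RAG. Same-numbered libraries of the lines deviated together (r = 0.218, 0.143 and 0.134 over genes, negative for all other pairs). A fit with the replicate number as a block was therefore run, as an alternative only. Values given come from the fit without the block unless stated. For Bbc3 the block gave a log2 fold change of 0.46 (adjusted p = 0.00942, edgeR), against 0.45 (adjusted p = 0.0364, edgeR) without it. Deviations were centred within each line, so positive values for same-numbered pairs force negative ones on average among the others. The negative values are thus no added support for pairing. Libraries of a line differed by more than sampling noise (chi-square per degree of freedom 8.87 to 92.7). The count test was also run on simulated data in which few genes differed. That does not check the scaling or the calls where most genes differ, as here.

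The members and gene lists were chosen with earlier results of these data known. Named beside the members were Trp53, Mdm2, Mdm4 and Cdkn1a, the ligands and receptors of members, and up to 2 called genes per role and direction with the largest change; Pidd1, Trp53inp1, Gpx1, Usp7, Fadd, Trp63 and Trp73 were named after their values were seen. One gene that this rule would name is not reported here. Pidd1 and Tigar were matched through older symbols of a RefSeq table of another assembly. Positions of genes were taken from the deposited table (mm9).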

Additional observations from a re-analysis of the deposited data

How the results depend on the processing

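All 10 members kept their direction in all 18 alternatives, and all but Bbc3 kept their call in each of them. Bbc3 kept its call in 13 of 18, with log2 fold changes from 0.34 to 0.63. With each library left out in turn, 5 to 6 members were called higher in MV+ and 4 lower. DESeq2 also called 5 higher, and all other settings called 6. On log2(FPKM + 1) low members shrink, and Eda2r had a log2 fold change of 2.27 and Perp of -6.41. Scaling by total counts moved the median of all genes by 0.18, and limma on FPKM by 0.17 to 0.18, and with total counts the pathway list had 15 genes higher and 15 lower and the partners 10 and 4. All counts of called genes in the lists stayed within 1.5 times. The replicate block raised the calls over all genes to 10766, against 10285 without it, and apart from Pidd1 it changed no call among the 67 genes of the 3 lists that were tested. Depth limits Perp in MV+ (7 counts) and Eda2r in RAG (8 counts), where the size of the difference is known only within its counting interval.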
